A study of Mus musculus with 4 samples.

Results

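The genes that carry help from T cells to B cells were followed in tumor leukocytes: the CD40 pair (Cd40 and its ligand gene Cd40lg), the ICOS pair (Icos and its ligand gene Icosl), the IL-21 pair (Il21 and its receptor gene Il21r), and Bcl6. The 7 genes were chosen by symbol and not by a threshold on their values, and all 7 were found among the 32285 genes of the deposited matrix. In lymphoid follicles, CD4 helper T cells display CD40 ligand and secrete IL-21, B cells and dendritic cells carry CD40, and the IL-21 receptor, which signals through the common gamma chain, JAK kinases and STAT3, is found on many lymphocytes. ICOS on T cells binds ICOS ligand on B cells and antigen-presenting cells, and this contact sustains follicular helper T cells. BCL6 is the transcriptional repressor needed both by follicular helper T cells and by germinal center B cells, and it is also used by myeloid cells.

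On GRCm38 the genes lie at 2:165055627-165072948 on the plus strand (Cd40, ENSMUSG00000017652), X:57212143-57224042 plus (Cd40lg, ENSMUSG00000031132), 3:37222759-37232636 minus (Il21, ENSMUSG00000027718), 7:125603429-125633570 plus (Il21r, ENSMUSG00000030745), 1:60977927-61000320 plus (Icos, ENSMUSG00000026009), 10:78069302-78083913 plus (Icosl, ENSMUSG00000000732) and 16:23965052-23988852 minus (Bcl6, ENSMUSG00000022508), chromosome first. All 7 are protein-coding. Il21 overlaps an antisense gene, Gm12534, with 25 UMIs in the filtered cells, and Bcl6 overlaps Gm37419 on the other strand with 4, so that a few reads could have been counted for either partner if strand was not used. Icos overlaps Gm37039 on the same strand, a gene that is not in the matrix.

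The leukocytes came from subcutaneous tumors of KPC cells, a mouse pancreatic cancer line, grown in C57BL/6 mice, which per the study's methods were male and 8 to 10 weeks old. The 4 groups were untreated mice, mice given the STING agonist ADU-S100 (2 µg once into the tumor), mice given the LTβR agonist antibody 4H8 (100 µg per dose into the peritoneum), and mice given both (combination). Per the methods, tumors were taken on day 14, 10 tumors of a group were pooled, and live CD45-positive cells were sorted. All groups therefore shared the tumor line, the sort and the host strain, and stromal and tumor cells were not sampled.

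Each group had 1 library, so no spread between pools of tumors is known and no test was made. Intervals are exact 95% intervals that cover counting error only. After the quality filter the libraries held 3748 to 7147 cells with medians of 5750 to 7094 unique molecular identifiers (UMIs) per cell. Between 29 and 52 barcode sequences were shared by each pair of libraries, and 246 in all were seen in more than 1 library. A level below is given as CPM, the UMIs of a gene in a cell class after the UMIs of that class were scaled to 1000000, and a ratio is the level in 1 library divided by that in another.

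Cells were sorted into classes by markers, none of which is among the 7 genes. In the order untreated, STING agonist, LTβR agonist and combination, which holds for every series of 4 values below, there were 1921, 1359, 2101 and 2048 T-like cells and 59, 15, 176 and 535 B-like cells (plasma-like cells included). Dendritic-like cells were 759, 242, 514 and 284, and macrophage- or monocyte-like cells 3246, 1524, 3011 and 1778. Detection of these markers describes the classes and is no check of the labels, since the same markers named them. Cd3e was detected in 82.1% of T-like cells and at most 7.78% of the other 3 classes. Cd79a was found in 96.3% of B-like cells and at most 0.363% elsewhere, Flt3 in 59.4% of dendritic-like cells and Csf1r in 86.8% of macrophage-like cells. Csf1r was also found in 37.9% of dendritic-like cells. Other markers were weak or shared. Ccr7 of the dendritic list was in 33.4% of dendritic-like and 57.7% of B-like cells. Sdc1 of the plasma list was in 3.57% of B-like and 12.9% of macrophage-like cells. Ly6c2 of the macrophage list was in 62.8% of macrophage-like and 39.5% of T-like cells. Within the classes, 1186 cells fell into sub-clusters led by markers of another class (mixed sub-clusters). T-like cells also took in a sub-cluster of 972 cells led by the natural killer receptor genes Klra7 and Klra1. The 7 T-cell markers together stood at 46.3, 12.6, 243 and 181 CPM in B-like cells with these sub-clusters and at 20.6, 14.3, 47.0 and 12.4 CPM without them. The same sum was 87.2 to 156 CPM in dendritic-like and 63.8 to 154 CPM in macrophage-like cells, and 10.6 to 24.1 and 6.96 to 17.3 CPM without them. For Cd40lg and Icos outside T-like cells, values without mixed sub-clusters are therefore given as well.

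The 250 bases before the transcription start of Bcl6, Icosl and Il21r are shown because these 3 genes were lower together in macrophage-like cells of the combination library. They were taken from RefSeq promoters on GRCm38.p6, where 4 of the 7 genes had an entry (Il21, Il21r, Icosl and Bcl6), and run 5′ to 3′ on the gene's strand. Capitals mark matches, on either strand, to TTCNNNGAA (the GAS element read by STAT proteins) or to the NF-κB word, which is 3 G, any 5 bases and 2 C. No 2 matches overlapped. Bcl6 had a start at the 5′ end of the gene and another inside the gene, and both are given. The RefSeq start of Icosl lies inside the gene model used for the counts.
Bcl6, outer start, chr16:23988853-23989102, minus strand: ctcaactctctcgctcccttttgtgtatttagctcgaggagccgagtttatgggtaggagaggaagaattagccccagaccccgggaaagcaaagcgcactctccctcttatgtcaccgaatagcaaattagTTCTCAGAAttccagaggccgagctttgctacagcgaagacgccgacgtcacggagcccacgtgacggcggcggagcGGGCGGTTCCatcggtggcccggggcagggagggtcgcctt
Bcl6, inner start, chr16:23981284-23981533, minus strand: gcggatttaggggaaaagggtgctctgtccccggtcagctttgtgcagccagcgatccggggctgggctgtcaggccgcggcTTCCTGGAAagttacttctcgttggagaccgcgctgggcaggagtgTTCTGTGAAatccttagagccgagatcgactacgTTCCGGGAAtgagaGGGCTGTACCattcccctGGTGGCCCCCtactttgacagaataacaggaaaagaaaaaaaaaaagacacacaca
Icosl, chr10:78069118-78069367, plus strand: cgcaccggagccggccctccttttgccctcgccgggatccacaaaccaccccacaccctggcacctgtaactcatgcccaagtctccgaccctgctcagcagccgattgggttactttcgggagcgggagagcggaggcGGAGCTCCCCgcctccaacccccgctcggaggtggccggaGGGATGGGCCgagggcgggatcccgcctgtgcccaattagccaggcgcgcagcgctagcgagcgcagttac
Il21r, chr7:125603179-125603428, plus strand: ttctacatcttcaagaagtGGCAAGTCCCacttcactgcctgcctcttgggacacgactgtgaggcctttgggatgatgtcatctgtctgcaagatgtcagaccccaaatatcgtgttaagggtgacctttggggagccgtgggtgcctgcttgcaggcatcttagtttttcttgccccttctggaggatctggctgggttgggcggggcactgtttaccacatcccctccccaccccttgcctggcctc
The GAS word occurred in 7.02% of 32851 RefSeq promoter windows of this length. The inner Bcl6 window held 3 such words (TTCCTGGAA, TTCTGTGAA and TTCCGGGAA) and the outer window 1 (TTCTCAGAA), while the windows of Icosl, Il21r and Il21 held 0. The NF-κB word was found in 45.8% of all windows. It occurred 2 times in the inner Bcl6 and the Icosl window and 1 time in the outer Bcl6, the Il21r and the Il21 window. These are matches of letters only, and no binding was measured.

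Cd40lg, Il21 and Icos lay mostly in T-like cells, Cd40, Icosl and Bcl6 mostly in macrophage- and dendritic-like cells, and Il21r in both. In the 4 libraries together, T-like cells held 88.1% of the 1691 Cd40lg UMIs, 89.1% of the 330 Il21 UMIs and 86.0% of the 29377 Icos UMIs. Macrophage-like cells held 72.9% of the 11526 Cd40 UMIs, 51.7% of the 3107 Icosl UMIs and 58.8% of the 11359 Bcl6 UMIs, and dendritic-like cells a further 21.9%, 30.7% and 17.7%. These shares are not scaled by class size. Macrophage-like cells were 9559 of the 23011 filtered cells, with medians of 8254 to 10592 UMIs against 4249 to 5058 in T-like cells. A large share there does not by itself mean a high level in these cells. The 23621 Il21r UMIs were spread over T-like (39.9%), macrophage-like (36.9%) and dendritic-like cells (16.1%). B-like cells took part mainly in the combination library, where they were 10.0% of cells against 0.870% in the untreated library. Their share of Icosl UMIs was 0.627%, 0.534%, 3.75% and 22.1%, that of Bcl6 UMIs 0.772%, 0.155%, 2.19% and 10.9%, and that of Cd40 UMIs 0.451%, 0.381%, 1.35% and 8.46%. The plot of UMIs by class shows both the split and the B-cell share.

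**Figure D1:**
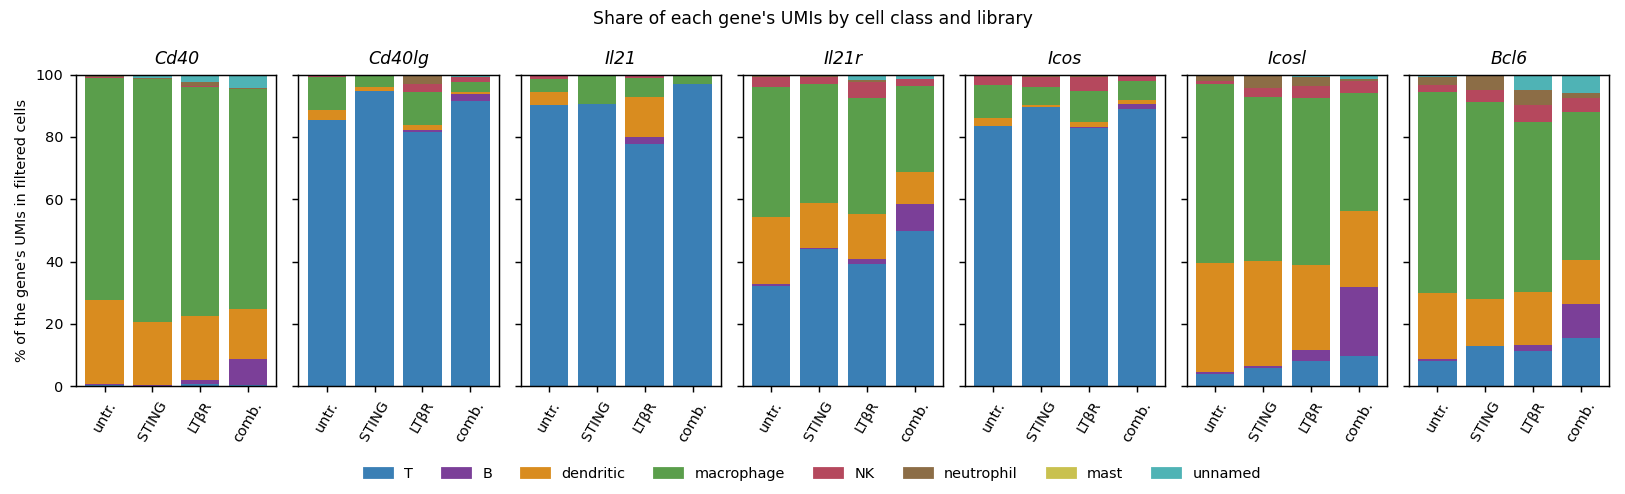
Share (%) of each gene's UMIs in filtered cells that lay in each cell class, 1 stacked bar per library (untreated, STING agonist, LTβR agonist, combination). T-like cells (blue) filled most of the bars of Cd40lg, Il21 and Icos, and the B-like share (purple) of Icosl reached 22.1% in the combination library.

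Cd40lg, the gene of the T-cell ligand that engages CD40, was higher in T-like cells of all 3 agonist libraries than in the untreated library. It stood at 22.7 CPM in the untreated library (19.9 to 25.8), 39.3 CPM with the STING agonist (35.1 to 43.9), 39.5 CPM with the LTβR agonist (35.8 to 43.4) and 41.5 CPM with both (37.9 to 45.2). The untreated interval lay below the other 3, which overlapped each other. Relative to untreated, the ratios were 1.73 (1.46 to 2.06), 1.74 (1.48 to 2.04) and 1.83 (1.56 to 2.14), and the combination did not stand apart from the STING agonist (1.05, 0.914 to 1.22) or from the LTβR agonist (1.05, 0.922 to 1.20). Cells with a Cd40lg UMI were 7.29%, 12.9%, 10.9% and 10.2% of T-like cells, at median depths of 4249 to 5058 UMIs. With 1000 UMIs drawn from every cell these shares were 2.42%, 4.08%, 3.98% and 3.89%. In macrophage-like cells, which should lack the gene, the unthinned shares were 0.591% to 1.10% at 8254 to 10592 UMIs. With T-like sub-clusters weighted alike in each library, the ratio of the combination to untreated was 1.35.

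CD4 cells, taken as T-like cells with a Cd4 UMI and without UMIs of Cd8a, Cd8b1 and Foxp3, held most of this RNA. They numbered 245, 265, 378 and 313 and carried 952 of the 1489 Cd40lg UMIs of T-like cells. Their level was 136 CPM (115 to 160), 157 CPM (136 to 181), 158 CPM (140 to 178) and 194 CPM (174 to 216), so that only the combination interval lay apart from the untreated one (ratio 1.43, 1.17 to 1.74). A single combination cell held 42 of the 342 UMIs there, and the cells with most UMIs in the other libraries held 9, 7 and 12. Without the top cell of each library the ratio to untreated was 1.33 (1.08 to 1.64). The ratios of the combination to the STING agonist (1.24, 1.03 to 1.48) and to the LTβR agonist (1.23, 1.05 to 1.45) rested on that cell, since without the top cells they were 1.13 (0.936 to 1.36) and 1.13 (0.954 to 1.34). The share of CD4 cells with a Cd40lg UMI differed less (33.5%, 39.6%, 36.0% and 40.6%). Regulatory cells (with Foxp3) ranged from 11.6 to 21.9 CPM and CD8 cells from 2.09 to 5.14 CPM. T-like cells in none of these gates stood at 29.9, 46.4, 46.9 and 50.7 CPM.

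**Figure D2:**
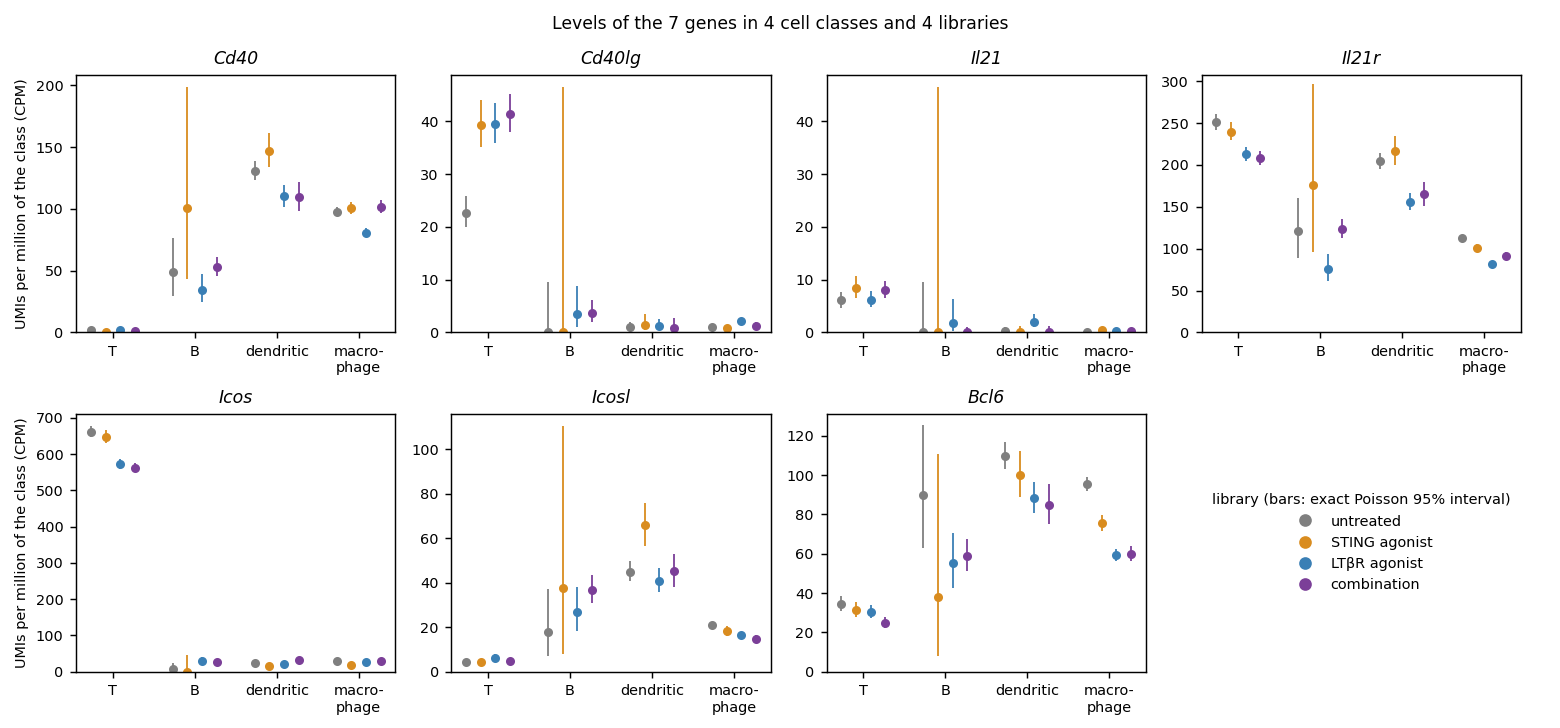
Level in CPM of the class (vertical axis, from 0, its own scale for each gene) of the 7 genes in T-, B-, dendritic- and macrophage-like cells. Points are the 4 libraries and bars exact Poisson 95% intervals (counting error only). The untreated Cd40lg point in T-like cells (22.7 CPM) sits below the 3 agonist points, and the intervals of B-like cells are wide where cells were few (15 with the STING agonist).

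By sub-cluster, Cd40lg was highest in Th2-like cells (led by Il5, Pparg and Il1rl1) at 280 CPM over the 4 libraries, followed by Th17-like cells (198 CPM) and a sub-cluster led by Penk, Igfbp7 and Ifitm2 with Tnfsf11 (184 CPM). A naive T-like sub-cluster led by Slamf6 and Tbc1d4 stood at 121 CPM. Th2-like cells numbered 19, 9, 54 and 87, so that they were more numerous in the libraries with the LTβR agonist. Their Cd40lg level was 173 CPM (92.2 to 296), 248 CPM (99.6 to 510), 356 CPM (282 to 442) and 266 CPM (225 to 312), with overlapping intervals for untreated and each of the others. Cd40lg was among the 10 genes that lead the Penk sub-cluster, although it was not used in the clustering. This sub-cluster had 170, 179, 127 and 254 CPM, and its combination interval (215 to 298) lay just above that of untreated (133 to 213). Of 12 T-like sub-clusters with at least 10 Cd40lg UMIs in the untreated and combination libraries together, 8 were higher and 4 lower in the combination.

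In B-, dendritic- and macrophage-like cells most Cd40lg UMIs lay in the mixed sub-clusters. B-like cells held 0, 0, 4 and 13 UMIs and dendritic-like cells 9, 4, 7 and 3, and without mixed sub-clusters every one of these counts was 0. Macrophage-like cells held 30, 12, 56 and 19 UMIs, of which 4, 1, 9 and 4 remained. A further 25 Cd40lg UMIs lay in natural killer-like, 14 in neutrophil-like and 6 in unnamed cells. In macrophage-like cells the Cd40lg ratio of the LTβR agonist to untreated was 2.13 with all cells (1.35 to 3.44). Without mixed sub-clusters this ratio was 2.64 with an interval of 0.737 to 11.7.

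Cd40, the gene of the receptor for CD40 ligand, was found in dendritic-, macrophage- and B-like cells and was near 0 in T-like cells. Dendritic-like cells stood at 131 CPM (123 to 138), 147 CPM (134 to 162), 110 CPM (102 to 119) and 110 CPM (98.5 to 122). The level was thus lower in both libraries with the LTβR agonist than in the other 2, with ratios to untreated of 0.844 (0.763 to 0.932) and, for the combination, 0.839 (0.743 to 0.946). Without mixed sub-clusters these ratios were 0.907 (0.814 to 1.01) and 0.880 (0.769 to 1.00), and both intervals included 1. Macrophage-like cells had 97.8, 101, 80.8 and 102 CPM, so that the LTβR agonist library alone was lower (ratio 0.826, 0.782 to 0.874) and the combination was 1.26 times that library (1.18 to 1.35). In T-like cells Cd40 stood at 1.70, 0.253, 2.13 and 0.730 CPM, and 0.147% to 0.762% of cells had a UMI. The mixed sub-cluster held 10 of the 18 untreated UMIs.

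In B-like cells Cd40 was 48.9 CPM (29.4 to 76.4), 101 CPM (43.6 to 199), 34.6 CPM (24.7 to 47.1) and 52.7 CPM (45.5 to 60.7). The counts behind these were 19, 8, 40 and 191 UMIs. All intervals overlapped that of untreated, and the ratio of the combination to untreated was 1.08 (0.671 to 1.83). The combination exceeded the LTβR agonist library (1.52, 1.08 to 2.20), but without mixed sub-clusters this ratio was 1.18 (0.786 to 1.83). Ordered by level in the untreated library, dendritic-like cells were above macrophage-like cells, which were above B-like cells, with no overlap of intervals. In the STING agonist library the B-like interval overlapped both other classes, and in the combination library dendritic- and macrophage-like intervals overlapped.

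Mature dendritic-like cells, a migratory state marked by Ccr7 and Fscn1, and 1 of 2 Cd209a dendritic-like sub-clusters had the highest Cd40 levels. Over the 4 libraries the Cd209a sub-cluster led by Cxcl10 and Ifit3 stood at 274 CPM, and the mature sub-cluster led by Fscn1 and Cacnb3 at 242 CPM. The mature cells had 294 CPM (264 to 327), 243 CPM (195 to 299), 194 CPM (165 to 226) and 189 CPM (150 to 236), which placed both LTβR agonist libraries below untreated. Type 1 conventional dendritic-like cells (cDC1, led by Cadm1 and Xcr1) took another order, with 52.6, 69.7, 148 and 38.9 CPM, the LTβR agonist library being highest (116 to 185). Plasmacytoid dendritic-like cells had 0, 0, 3 and 1 Cd40 UMIs. Among macrophage-like cells the sub-clusters led by the interferon-response genes Ifit1bl1 and Cmpk2 (230 CPM) and by Dmkn and Timp1 with Cxcl10 (177 CPM) were highest. The latter stood at 164, 162, 155 and 260 CPM, with the combination interval (234 to 289) above the other 3.

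Il21, the helper cytokine gene, was rare and lay in few cells. T-like cells held 64, 66, 66 and 98 UMIs, or 6.05 CPM (4.66 to 7.73), 8.34 CPM (6.45 to 10.6), 6.10 CPM (4.72 to 7.76) and 7.95 CPM (6.45 to 9.69). The intervals overlapped throughout, with a ratio of 1.31 between combination and untreated (0.949 to 1.83). Only 25, 15, 26 and 22 cells had an Il21 UMI, and the 3 cells with most held 54.7%, 68.2%, 40.9% and 57.1% of the UMIs, so that counting intervals understate the error. With each cell weighted alike the ratio of the combination to untreated was 0.942.

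CD4 cells carried 242 of the 294 Il21 UMIs of T-like cells, in 64 cells. Their level was 28.0 CPM (18.9 to 40.0), 49.1 CPM (37.6 to 63.1), 34.0 CPM (25.8 to 44.0) and 52.8 CPM (42.6 to 64.7). The combination was 1.89 times untreated (1.24 to 2.95) in this gate, while the share of CD4 cells with an Il21 UMI was 6.53%, 4.53%, 5.03% and 5.43%. More UMIs thus came from a like share of cells, with at most 11, 20, 14 and 27 UMIs in a cell. T-like cells outside the 3 gates went the other way, with 28, 5, 6 and 2 UMIs, 19 of the untreated ones in a single cell. The sub-cluster led by Penk held 71.4% of the Il21 UMIs of T-like cells and stood at 78.0, 99.2, 98.1 and 108 CPM, with overlapping intervals. A sub-cluster led by Mfhas1 and St8sia1 was next (30.7 CPM over the 4 libraries) and had 17, 7, 2 and 0 UMIs among 146, 111, 81 and 50 cells. In B-, dendritic- and macrophage-like cells without mixed sub-clusters, the 4 libraries together had 0, 3 and 2 Il21 UMIs.

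Il21r, the receptor gene, was lower in libraries with the LTβR agonist in 3 classes. T-like cells stood at 251 CPM (242 to 261), 240 CPM (229 to 251), 213 CPM (204 to 222) and 208 CPM (200 to 216). Ratios to untreated were 0.955 (0.900 to 1.01) for the STING agonist, 0.849 (0.802 to 0.898) for the LTβR agonist and 0.830 (0.785 to 0.876) for the combination. The STING agonist library overlapped untreated and the other 2 did not. With sub-clusters weighted alike, however, the LTβR agonist ratio was 1.01 and the combination ratio 0.978. A sub-cluster led by Myo10 and Setbp1, with the highest Il21r level (929 CPM over the 4 libraries), numbered 170, 67, 56 and 64 cells, and its own level was 926, 868, 956 and 980 CPM.

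Dendritic-like cells had 205, 216, 156 and 165 CPM of Il21r, with ratios to untreated of 0.763 (0.703 to 0.829) for the LTβR agonist and 0.807 (0.731 to 0.889) for the combination. Macrophage-like cells had 113, 101, 81.6 and 91.5 CPM, with all 3 agonist libraries below untreated and ratios of 0.894 (0.843 to 0.949), 0.725 (0.687 to 0.765) and 0.813 (0.764 to 0.865). In B-like cells the level was 121 CPM (88.9 to 161), 177 CPM (96.5 to 296), 76.0 CPM (61.0 to 93.7) and 124 CPM (112 to 136). There the combination was level with untreated within its interval (1.02, 0.755 to 1.41) and above the LTβR agonist library (1.62, 1.29 to 2.06). Follicular B-like cells of the combination had 168 CPM (138 to 201) and memory B-like cells 69.5 CPM (53.6 to 88.6). Mature dendritic-like cells (332 CPM over the 4 libraries in the sub-cluster led by Fscn1) were above cDC1-like cells, which ranged from 51.9 to 85.2 CPM. An unnamed dendritic-like sub-cluster of 53 cells led by Cyp7b1 and Pvt1 had 539 CPM.

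**Figure D3:**
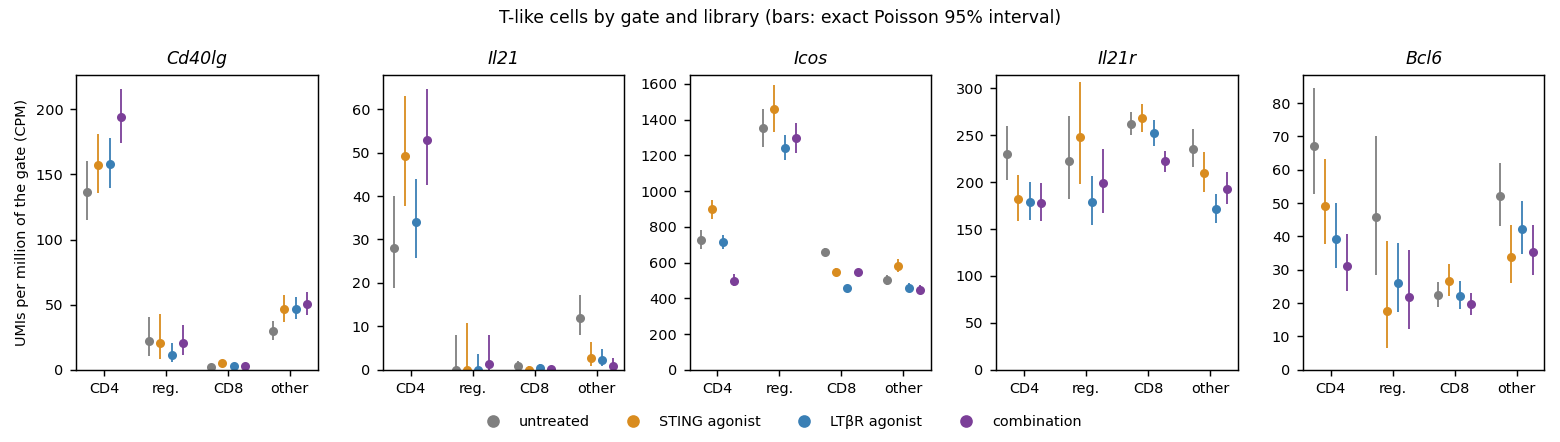
Level in CPM of the gate (vertical axis, from 0) of 5 genes in CD4, regulatory, CD8 and other T-like cells. Points are the 4 libraries and bars exact Poisson 95% intervals (counting error only). In CD4 cells the combination point is highest for Cd40lg (194 CPM) and lowest for Icos (499 CPM) and Bcl6 (31.2 CPM).

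Icos, the costimulatory receptor gene of activated T cells, was lower in T-like cells of both libraries with the LTβR agonist. Its level was 661 CPM (646 to 677), 648 CPM (630 to 666), 573 CPM (559 to 588) and 562 CPM (549 to 576), and 73.8%, 78.0%, 69.4% and 71.6% of cells had a UMI. The LTβR agonist and combination intervals lay below the other 2, with ratios to untreated of 0.867 (0.838 to 0.897) and 0.850 (0.822 to 0.879). With sub-clusters weighted alike the ratio of the combination was 0.966. Regulatory cells had the highest levels of the gates (1350, 1458, 1241 and 1295 CPM). CD4 cells had 727 CPM (677 to 780), 898 CPM (846 to 953), 714 CPM (674 to 755) and 499 CPM (467 to 534), so that the STING agonist library was above untreated (1.24, 1.13 to 1.35) and the combination below it (0.687, 0.623 to 0.757). CD8 cells were lower than untreated in all 3 agonist libraries, with 659, 545, 457 and 549 CPM.

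The sub-clusters with most Icos were regulatory T-like cells (1340 CPM over the 4 libraries), the one led by Myo10 (1280 CPM), the one led by Mfhas1 (1044 CPM), Th17-like cells (893 CPM) and gamma-delta T-like cells (866 CPM). A naive T-like sub-cluster led by Igfbp4 that also has Dapl1 and Ccr7 among its leading genes had 154 of its 204 cells in the combination library, with 164 CPM of Icos there (134 to 199). Th2-like cells stood at 692 CPM (517 to 908), 354 CPM (170 to 651), 236 CPM (176 to 308) and 201 CPM (166 to 241). In these cells Icos was therefore lower with the LTβR agonist, alone and in combination, than in the untreated library, while their Cd40lg intervals overlapped. Of 17 T-like sub-clusters, 6 had more and 11 less Icos in the combination than in the untreated library.

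In the other classes Icos followed the mixed sub-clusters. B-like cells had 3, 0, 34 and 101 UMIs, of which 0, 0, 1 and 2 remained without mixed sub-clusters. Dendritic-like cells stood at 24.6, 15.2, 21.4 and 31.9 CPM with them and at 3.75, 7.38, 5.86 and 3.14 CPM without them, and macrophage-like cells at 29.3, 19.3, 28.0 and 30.04 CPM and at 3.46, 1.11, 3.54 and 2.25 CPM.

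Icosl, the ligand gene of ICOS, was present in B-, dendritic- and macrophage-like cells, and its order between libraries differed among these classes. B-like cells had 18.0 CPM (7.24 to 37.1), 37.8 CPM (7.80 to 111), 26.8 CPM (18.2 to 38.0) and 36.7 CPM (30.7 to 43.5), from 7, 3, 31 and 133 UMIs. The intervals overlapped, and the combination was 2.04 times untreated with an interval that includes 1 (0.961 to 5.16). Since the 3 untreated cells with most UMIs held 71.4% of them, leaving out the 3 highest cells of each library raised this ratio to 6.57. Cells with an Icosl UMI numbered 5 of 59, 2 of 15, 28 of 176 and 107 of 535 B-like cells, and their shares were 3.39%, 0%, 5.17% and 4.35% after thinning to 1000 UMIs. In T-like cells 2.08% to 3.05% had an Icosl UMI.

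Follicular B-like cells, with Cr2, Fcer2a and Ighd among their leading genes, held most Icosl. Over the 4 libraries they stood at 75.0 CPM, against 12.6 CPM in memory B-like cells led by Zbtb32 and Lmo7, and their number was 11, 1, 50 and 175. Icosl itself was among the 10 genes that lead this sub-cluster, although it was not used in the clustering. In the LTβR agonist library follicular B-like cells had 89.5 CPM (46.2 to 156) and memory B-like cells 18.2 CPM (8.32 to 34.5), and in the combination library 74.3 CPM (55.3 to 97.7) and 9.62 CPM (4.40 to 18.3). With B-like sub-clusters weighted alike in each library, the ratio of the combination to untreated was 1.46.

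In dendritic-like cells Icosl was 45.0 CPM (40.6 to 49.6), 65.8 CPM (56.8 to 75.8), 41.0 CPM (35.8 to 46.7) and 45.1 CPM (38.1 to 53.1). Only the STING agonist library stood apart, at 1.46 times untreated (1.22 to 1.75), and the combination did not share this (1.00, 0.825 to 1.22). Within mature dendritic-like cells, however, the sub-cluster led by Fscn1 had 47.1, 62.8, 37.4 and 95.9 CPM, with the combination interval (68.5 to 131) above that of untreated (35.6 to 61.1). The other mature sub-cluster, led by Gstt3, had 68.7, 132, 112 and 18.9 CPM, in which the combination rested on 4 UMIs of 15 cells. Macrophage-like cells showed yet another order, with 20.9 CPM (19.3 to 22.6), 18.2 CPM (16.1 to 20.4), 16.4 CPM (14.9 to 18.0) and 14.6 CPM (12.8 to 16.7). There the combination was 0.701 times untreated (0.6004 to 0.817), and 12 of 15 macrophage-like sub-clusters with at least 10 UMIs had the lower level in the combination.

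Bcl6, the repressor gene of the follicular programs, was found at 98.7 CPM in dendritic-like and 74.8 CPM in macrophage-like cells over the 4 libraries, against 60.2 CPM in B-like cells, and was lowest of the 4 classes in T-like cells. Macrophage-like cells had 95.4 CPM (92.0 to 98.9), 75.6 CPM (71.4 to 80.0), 59.4 CPM (56.5 to 62.3) and 59.95 CPM (56.2 to 63.9). All 3 agonist libraries lay below untreated, the STING agonist library at 0.793 (0.741 to 0.848), the LTβR agonist library at 0.622 (0.585 to 0.662) and the combination at 0.628 (0.583 to 0.677), and the last 2 overlapped each other. The share of macrophage-like cells with a Bcl6 UMI was 48.3%, 45.7%, 34.0% and 33.9%, and after thinning 9.87%, 8.17%, 6.53% and 6.08%. Of 16 sub-clusters with at least 10 UMIs, 14 had the lower level in the combination. The largest untreated sub-cluster, led by complement genes C1qb, C1qa and C1qc, numbered 820, 359, 94 and 55 cells and had 98.6, 76.8, 61.4 and 49.8 CPM. The sub-cluster led by Retnla and Lyz1, which numbered 35, 31, 138 and 277 cells, had 87.1, 38.7, 63.4 and 49.8 CPM. With sub-clusters weighted alike the ratio of the combination to untreated was 0.671.

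Dendritic-like cells had 110 CPM (103 to 117), 100 CPM (88.8 to 112), 88.2 CPM (80.5 to 96.4) and 85.0 CPM (75.3 to 95.7) of Bcl6. Both libraries with the LTβR agonist were below untreated (0.802, 0.718 to 0.896, and for the combination 0.773, 0.674 to 0.885). The gene was highest in cDC1-like cells, which use BCL6 in their development, at 240 CPM (207 to 276), 198 CPM (147 to 260), 196 CPM (159 to 238) and 266 CPM (191 to 361). Their intervals overlapped, and the combination library held only 9 of these cells. Plasmacytoid dendritic-like cells had 29.4, 37.1, 31.6 and 31.0 CPM.

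T-like cells had 34.5 CPM (31.1 to 38.3), 31.5 CPM (27.7 to 35.6), 30.3 CPM (27.1 to 33.8) and 24.7 CPM (22.0 to 27.7) of Bcl6. For the combination the ratio was 0.717 against untreated (0.614 to 0.837) and 0.786 against the STING agonist (0.663 to 0.933). The difference was wider in CD4 cells, which had 67.2 CPM (52.6 to 84.6), 49.1 CPM (37.6 to 63.1), 39.3 CPM (30.5 to 49.9) and 31.2 CPM (23.5 to 40.7). In this gate the LTβR agonist ratio was 0.585 (0.413 to 0.827) and the combination ratio 0.465 (0.321 to 0.670). The combination was at 0.636 of the STING agonist (0.434 to 0.931) and at 0.795 of the LTβR agonist library (0.546 to 1.15). A Bcl6 UMI was found in 49 of 245, 44 of 265, 50 of 378 and 37 of 313 CD4 cells. After thinning these shares were 4.12%, 4.92%, 4.28% and 3.56%, from 10, 13, 16 and 11 cells. Their intervals overlapped, so the thinned shares, which rest on few cells, did not show the fall seen in the levels. CD8 cells stood at 22.4, 26.6, 22.1 and 19.7 CPM, with overlapping intervals for untreated and each agonist library. CD4 cells of the combination library thus had the lowest Icos of the 4 libraries, a Cd40lg level above untreated, a Bcl6 level below untreated and below the STING agonist, and an Il21 interval that overlapped that of the STING agonist.

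B-like cells had 90.1 CPM (62.7 to 125), 37.8 CPM (7.80 to 111), 55.3 CPM (42.6 to 70.6) and 59.0 CPM (51.4 to 67.4) of Bcl6, from 35, 3, 64 and 214 UMIs. The ratio of the combination to untreated was 0.655 (0.457 to 0.965). Without mixed sub-clusters the levels were 61.7, 14.3, 45.8 and 61.2 CPM and this ratio was 0.991 (0.608 to 1.71). In the combination library follicular B-like cells had 94.7 CPM (73.1 to 121), memory B-like cells 25.7 CPM (16.4 to 38.2) and a sub-cluster led by Ctps2 and Gpr174 109 CPM (82.1 to 143). No sub-cluster was named germinal center B-like, and in T-like cells none was named follicular helper-like.

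**Figure D4:**
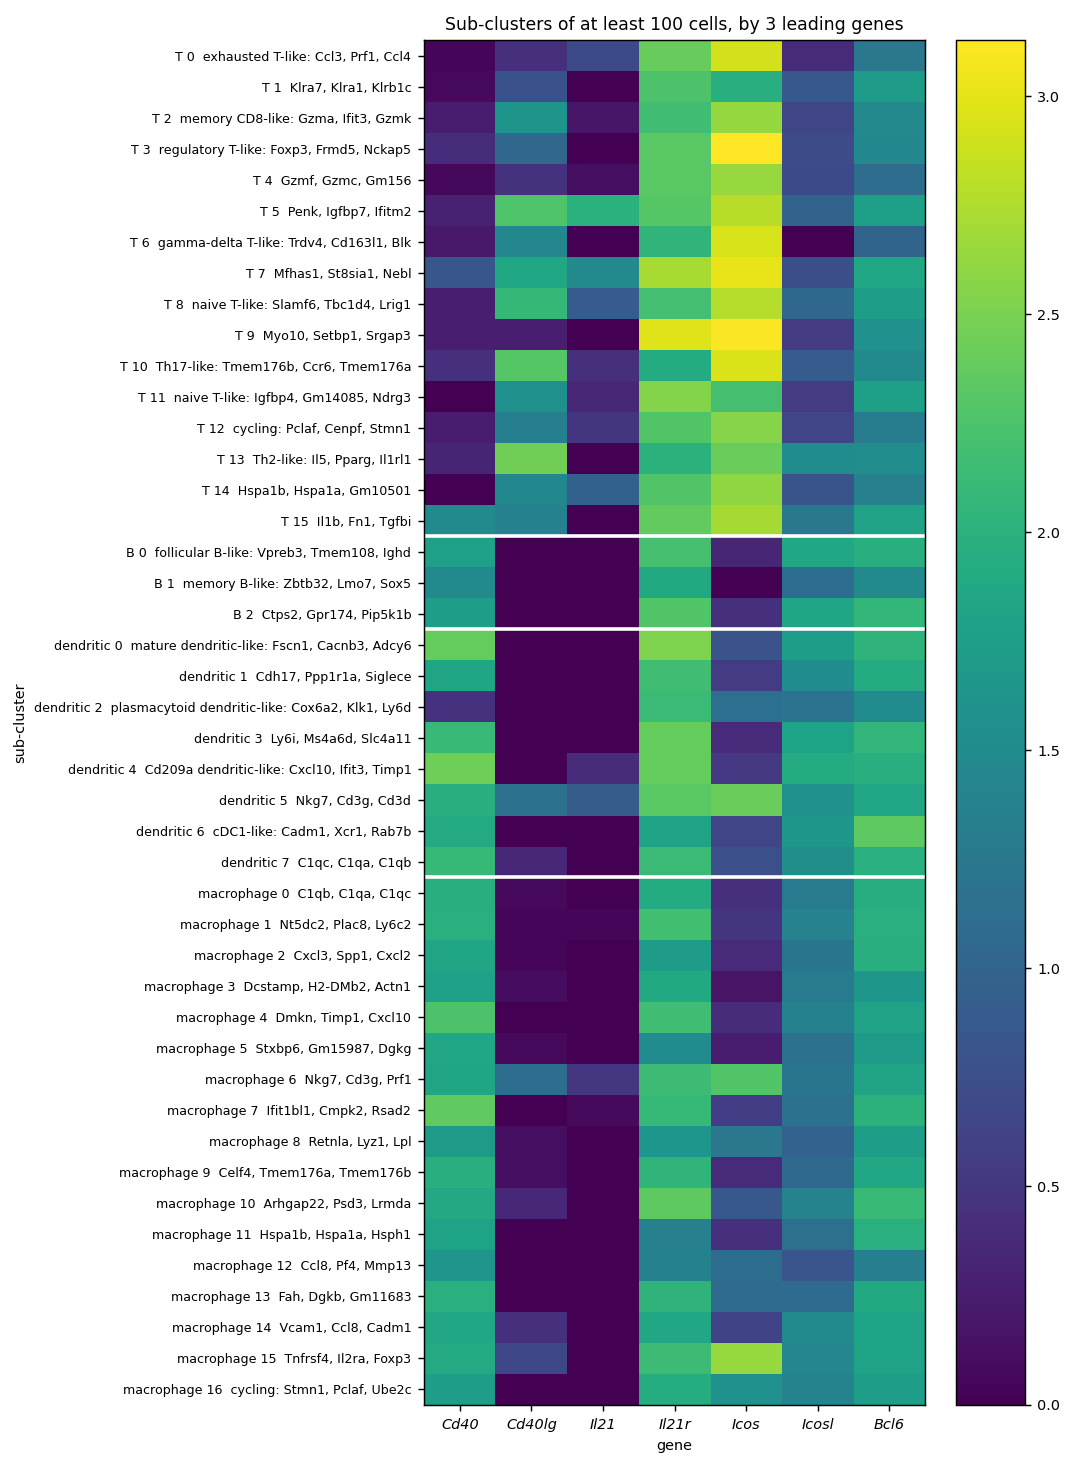
Level of the 7 genes as log10(CPM + 1) (color) in the 44 sub-clusters of at least 100 cells of the 4 classes, the 4 libraries summed, each labeled by its class, number, name where it had one, and 3 leading genes. Cd40lg and Il21 meet in the T-like sub-cluster led by Penk (184 and 97.0 CPM), and Bcl6 is highest in the cDC1-like cells (223 CPM).

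Cd40lg and Il21 were found in the same T-like cells more often than in cells without the other. Of 754 T-like cells with a Cd40lg UMI, 46 also had an Il21 UMI (6.10%, 4.50 to 8.05), against 0.629% of the cells without Cd40lg, at near-equal median depths of 4536 and 4671 UMIs. The shares were 8.57%, 4.55%, 4.80% and 7.18% in the 4 libraries, against 0.730%, 0.592%, 0.801% and 0.381%. Among CD4 cells alone, 40 of 450 Cd40lg-positive cells had Il21 (8.89%, 6.43 to 11.9), against 3.20% of the others, whose median depth was lower (3808 against 4795 UMIs). Of the 88 T-like cells with Il21, 86.4% had Icos (77.4 to 92.8), 64.8% had Pdcd1, the PD-1 gene (53.9 to 74.7), and 13.6% had Bcl6 (7.25 to 22.6), at a median of 5406 UMIs. The cells without Il21 gave 72.5%, 49.9% and 12.2% at 4639 UMIs. Cxcr5, the receptor that brings T cells into follicles, was found in 211 T-like cells, of which 2 had Il21 (0.948%, 0.115 to 3.38). The T-like cells without Cxcr5 gave 1.19%, which lies inside that interval. Among CD4 cells 2 of 40 with Cxcr5 had Il21 (5.00%, 0.611 to 16.9), against 5.34% of those without it.

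Counted by a ratio of at least 1.5 in either direction, few of the 7 genes stood out from the background of all genes with at least 50 UMIs over the 4 libraries of a class. In T-like cells all 7 passed this minimum. Under the STING agonist 2 were past 1.5 (Cd40lg higher, Cd40 lower, the latter from 18 and 2 UMIs) where 11.7% of 12147 genes were, under the LTβR agonist 1 (Cd40lg) where 10.7% were, and under the combination 2 (Cd40lg, and Cd40 from 18 and 9 UMIs) where 10.2% were. Without mixed sub-clusters Icosl and Cd40 were also past 1.5 under the LTβR agonist. In B-like cells 5 passed the minimum (not Cd40lg and Il21), and under the combination 3 were past 1.5 (Icos and Icosl higher, Bcl6 lower) where 25.7% of 8219 genes were. Without mixed sub-clusters Icosl alone remained. Under the STING agonist, with 15 B-like cells, 3 of the 5 were past 1.5 (Icosl and Cd40 higher, Bcl6 lower from 3 UMIs) where 42.4% of genes were, and without mixed sub-clusters Cd40 and Il21r were higher and Bcl6 lower. In dendritic-like cells 0 of 5 were past 1.5 under the combination where 13.3% of 10720 genes were, and in macrophage-like cells 1 of 6 (Bcl6, lower) where 13.8% of 12702 were. Under the STING agonist Icos alone was past 1.5 in these classes, lower in both, where 11.0% of genes were in dendritic-like and 9.90% in macrophage-like cells. Without mixed sub-clusters Icos was higher in dendritic-like cells and still lower in macrophage-like cells, where Cd40lg was lower as well. Under the combination, macrophage-like cells without mixed sub-clusters also had lower Icos than untreated. Their Cd40lg was higher, from 4 UMIs in the combination and 4 in the untreated library. Since each library holds 1 pool of tumors, these counts say nothing of how often such ratios arise between pools.

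**Figure D5:**
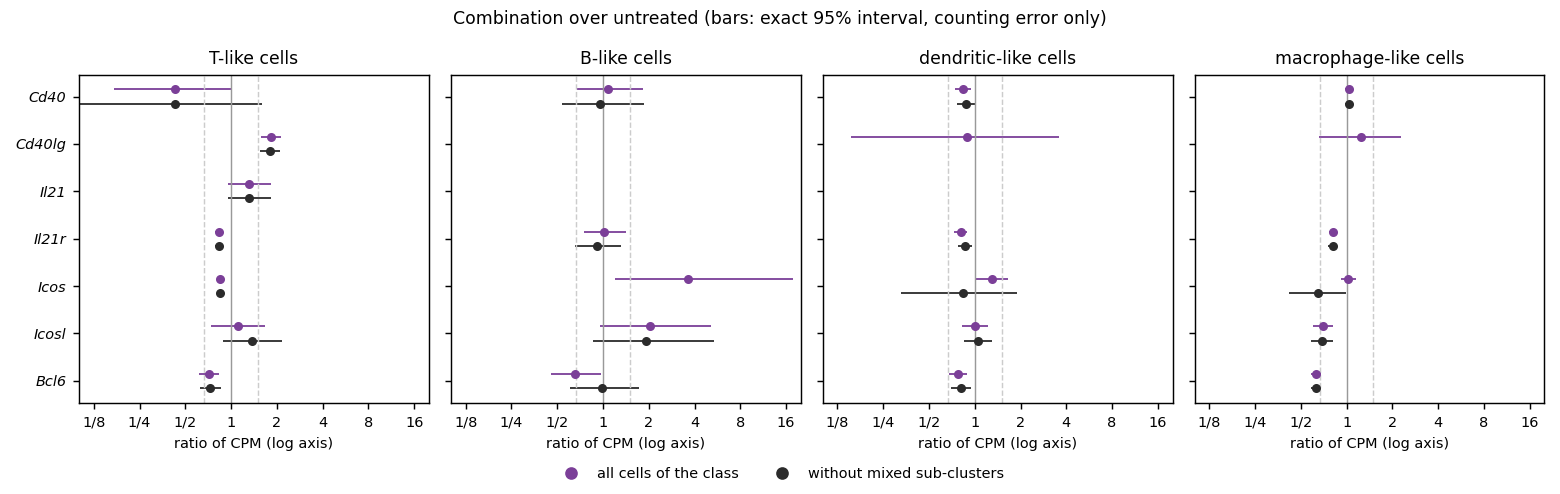
Ratio of CPM in the combination to the untreated library (horizontal, log axis) for each gene and class, with exact 95% intervals (counting error only), for all cells and without mixed sub-clusters. Points with under 10 UMIs in both libraries together are left out, and dashed lines mark 1.5 in either direction. Cd40lg in T-like cells (1.83) and Bcl6 in macrophage-like cells (0.628) lie past the lines both ways of counting, and Icos in B-like cells only with mixed sub-clusters.

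Other genes of these pathways were read from fixed lists. Among 15 genes of CD40 signaling and response, 14 passed the minimum in T-like cells, and under the combination 1 was past 1.5 there, Traf5, an adaptor of the TNF receptor family (48.3 to 30.5 CPM, ratio 0.631, 0.551 to 0.722). The median log2 ratio of this list was 0.02, against -0.06 over all genes. In B-like cells 0 of 14 were past 1.5, with a median of 0.12 on the log2 scale against 0.06 over all genes, and without mixed sub-clusters 1 was higher and 1 lower. Under the STING agonist 12 of these 14 were higher in B-like cells and 0 lower, from 15 cells, where 27.7% of all genes were higher and 14.7% lower, and without mixed sub-clusters 11 were higher. From the STING agonist to the combination library 7 of 14 were lower and 0 higher, where 42.9% of genes were past 1.5 in either direction and 28.1% were lower. For the combination over untreated, 0 of 15 were past 1.5 in dendritic-like cells, and 1 was lower without mixed sub-clusters. In macrophage-like cells 2 of 15 were higher under the combination: Il12b, the p40 subunit of IL-12 (1.43 to 3.58 CPM, ratio 2.49, 1.65 to 3.79), and Nfkb2, a subunit of the non-canonical NF-κB pathway that LTβR and CD40 both engage (57.4 to 86.9 CPM, ratio 1.51, 1.41 to 1.63). Both were also past 1.5 without mixed sub-clusters, and Il12b had 5 UMIs with the STING agonist and 4 with the LTβR agonist, against 44 and 56 in the untreated and combination libraries.

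Of 8 genes of IL-21 receptor signaling, Socs1, a feedback inhibitor of JAK kinases, was the one that passed 1.5 most often. It was past 1.5 in the STING agonist library in T-like cells (140 to 220 CPM, ratio 1.57, 1.46 to 1.68) and dendritic-like cells (74.6 to 135 CPM, ratio 1.81, 1.59 to 2.06) and macrophage-like cells (91.7 to 163 CPM, ratio 1.78, 1.69 to 1.88), and under the combination in B-like cells (56.6 to 103 CPM, ratio 1.83, 1.19 to 2.95) and macrophage-like cells (91.7 to 160 CPM, ratio 1.74, 1.65 to 1.84). Jak3, the kinase bound to the common gamma chain, was lower in macrophage-like cells under the combination (42.4 to 27.9 CPM, ratio 0.657, 0.588 to 0.733). In B-like cells under the combination, Prdm1 of this list was past 1.5 and higher without mixed sub-clusters, but not with them. Under the STING agonist 5.45% of all genes counted were higher in T-like, 4.93% in dendritic-like and 3.13% in macrophage-like cells. In each of these Socs1 was the 1 gene of the 8 past 1.5. Under the combination 16.1% of all genes were higher in B-like and 8.10% in macrophage-like cells. Socs1 is also induced by interferons and other cytokines.

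In the follicular helper list, 16 of 17 genes passed the minimum in T-like cells, and under the combination 2 were past 1.5, both higher. Il4, the type 2 cytokine that also acts on B cells, had 1.42 and 9.49 CPM (15 and 117 UMIs, ratio 6.69, 3.89 to 12.3), and Cxcr5 had 3.41 and 8.11 CPM (36 and 100 UMIs, ratio 2.38, 1.61 to 3.59). Under the LTβR agonist Il4 (ratio 5.41), Cxcr5 (3.01) and Tox2, a follicular helper regulator (1.55), were higher and Pdcd1 was lower (385 to 248 CPM, ratio 0.645). Under the STING agonist 0 were higher and 2 lower, Tox2 (ratio 0.436) and Il4 (from 15 and 6 UMIs). Over all genes in T-like cells, 5.37% were higher and 5.36% lower under the LTβR agonist, and 5.45% and 6.23% under the STING agonist. Il4 was among the genes that lead the Th2-like sub-cluster, which was larger in the libraries with the LTβR agonist. Of this list 12 genes passed the minimum in B-like, 13 in dendritic-like and 15 in macrophage-like cells. Over all genes 16.1%, 5.40% and 8.10% were higher there under the combination, and 9.59%, 7.86% and 5.73% lower. In B-like cells Pdcd1, Tcf7, Maf and Cd28 of this list were past 1.5 and higher under the combination, from 1 or 2 untreated UMIs each. Without mixed sub-clusters none of the 4 was higher, and Maf and Pdcd1 were lower. In dendritic-like cells Cd28, Pdcd1 and Irf4 were higher and Ctla4 lower, of which Cd28 and Ctla4 kept their side without mixed sub-clusters and Pdcd1 was lower. In macrophage-like cells Tox2, Irf4 and Tcf7 were higher, the regulator gene Irf4 from 5.97 to 14.3 CPM (ratio 2.40, 1.96 to 2.93). Without mixed sub-clusters Tcf7 was not past 1.5 there, while Irf4, Tox2, Izumo1r and Sh2d1a were higher and Ctla4 was lower.

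Of 15 genes of the germinal center and B-cell response, 8 passed the minimum in B-like cells. Under the combination 1 of these was higher and 1 lower, where 16.1% of all genes were higher and 9.59% lower. Under the combination Xbp1, the plasma-cell regulator, was lower (381 to 167 CPM, ratio 0.439, 0.366 to 0.529), also without mixed sub-clusters. Plasma-like cells, with a median of 18259 UMIs over the libraries, were 4 of 59 untreated and 21 of 535 combination B-like cells, and their part in the Xbp1 ratio was not tested. Under the combination Fas, a germinal center marker, had 10.3 and 17.4 CPM from 4 and 63 UMIs (ratio 1.69, 0.627 to 6.38) and was not past 1.5 without mixed sub-clusters. Mef2b of the same list was past 1.5 and higher without mixed sub-clusters, but not with them. In T-like cells Irf8, a myeloid and B-cell regulator, was lower (267 to 173 CPM, ratio 0.647, 0.611 to 0.685) and Pou2af1, a B-cell coactivator, had 1.80 and 3.08 CPM from 19 and 38 UMIs (ratio 1.72, 0.965 to 3.15) and was not past 1.5 without mixed sub-clusters, where Irf8 still was. The summed level of 9 B-cell markers in T-like cells was 5.58, 2.66, 11.2 and 21.7 CPM, and its part in the Pou2af1 ratio was not tested. That of 13 macrophage markers was 901, 872, 816 and 683 CPM, and its part in the Irf8 ratio was not tested.

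Likeness was measured over 24 clusters of at least 50 cells as Pearson's r of log2(CPM + 10) among 15027 genes, and is given as a description. The gene most like Icos was Ctla4 (r = 0.970), that most like Il21 was Tnc (0.973) and that most like Cd40 was Ifi205 (0.956). Cd40lg was followed most closely by A430090L17Rik (0.912) and Trav14-2 (0.901), with Tnfsf11 next (0.899), and Il21r by Spindoc (0.886). For Icosl the first was Gm20513 (0.895), and for Bcl6 it was Baz2b (0.859). The clusters share libraries and cells differ in depth between them, and Il21 is near 0 in most clusters, so that its r rests on few of them. Tnfsf11 is also a leading gene of the Penk sub-cluster.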

How the data were processed

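Leukocyte RNA was profiled with the 10x Chromium 5′ assay. Per the labels and the study's methods, the authors made the deposited UMI counts with Cell Ranger 7.1.0 on mm10 and joined the 4 libraries in 1 matrix without normalization, each barcode ending in the number of its library (3 untreated, 4 STING agonist, 1 LTβR agonist, 2 combination). Whether reads were equalized between libraries was not given in the sources used here. Each group was 1 library, so no test was made, and intervals cover counting error only.

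Of 24839 barcodes, 23011 (92.6%) passed the study's filter of 300 to 5000 genes and at most 6% mitochondrial UMIs. Doublets were kept, and their removal was an alternative (Scrublet, expected rate 0.05, score 0.2). Counts were scaled to 10000 per cell and clustered in scanpy 1.11.5 on 2000 variable genes, 30 components, 20 neighbors and Leiden resolution 1 (leidenalg 0.10.2, seed 0), with 641 V(D)J genes and 62 pathway genes, the 7 genes among them, left out of the variable genes. Of 25 clusters, 24 were named by marker genes and each class was clustered again. The thresholds for names and for mixed sub-clusters were chosen with the clusters in view, and cell names may differ from the study's.

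Levels were summed UMIs of a class as CPM with exact Poisson 95% intervals. Ratios had exact conditional binomial intervals, shares Clopper-Pearson intervals, and a level of 0 was replaced by a floor of 3 counts. Genes with at least 50 UMIs over the 4 libraries and a ratio of at least 1.5 were counted. The 7 genes and the lists were chosen with earlier results of these data known. Besides the 7 genes, list genes were named where they passed both limits in the comparison described, the furthest from 1 first and at most 4 a list, and the 3 genes most like each of the 7 were ranked. Genes named as leading a sub-cluster, and those named for values without mixed sub-clusters, were chosen after their values were seen. Computation used Python 3.11.15, scipy 1.17.1, numpy 2.4.6 and matplotlib 3.10.9.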

Additional observations from a re-analysis of the deposited data

How the results depend on the processing

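No paired analysis was possible because each group has 1 library, and for the same reason no library could be left out. Of 122 alternative values for 9 ratios of the combination to untreated, 110 moved by less than the counting interval and 12 moved by more, and of 1366 values for the other 104 ratios 82 moved by more and 20 reversed. A reversal was counted only where the interval of the ratio left out 1. Of the 9 ratios, 3 whose intervals included 1 crossed it in 9 of 53 values: Il21 in T-like cells (0.942), Cd40 in B-like cells (0.722 to 0.960) and Cd40 in macrophage-like cells (0.982 to 0.991). Weighting cells alike gave 1.54 for Cd40lg and this 0.942 for Il21 in T-like cells and 0.731 for Cd40 in dendritic-like cells. Holding the sub-cluster make-up fixed gave 1.35 for Cd40lg, 0.978 for Il21r and 0.966 for Icos in T-like cells and 1.13 for Cd40 in macrophage-like cells. For Icos in T-like cells size factors gave 0.884, classes by marker score 0.895, and these without the quality filter 0.922. Cd40 in dendritic-like cells without the filter and by marker score gave 0.997, and Icosl in B-like cells without the 3 highest cells of each library 6.57. The cause was not tested.

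Several ratios crossed 1. With a fixed make-up Il21r in T-like cells gave 1.01 (LTβR agonist over untreated) and Cd40 in dendritic-like cells 0.998 (STING agonist over untreated). Cd40 in B-like cells of the combination over the LTβR agonist gave 0.918 by marker score and 0.965 without cells that held 2 markers of another class. Icos in B-like cells gave 0.449 by marker score and 0.472 without the filter as well for the LTβR agonist over untreated, and 0.334 and 0.398 for the combination. Icos in dendritic-like cells under the STING agonist gave 1.28 with cells weighted alike, 1.12 by marker score and 1.97 without mixed sub-clusters. Its ratio of the combination to untreated gave 0.837 without mixed sub-clusters and 0.799 with a fixed make-up, that to the STING agonist 0.953 with cells weighted alike and 0.425 without mixed sub-clusters, and that to the LTβR agonist 0.536 without them. In macrophage-like cells Cd40lg of the combination over the LTβR agonist gave 1.02 by marker score, and Icos gave 1.15 for the STING agonist over untreated with a fixed make-up, and 0.887 without cells holding 2 markers of another class and 0.735 with a fixed make-up for the combination over the STING agonist. The removal of mixed sub-clusters and of the CD4 cells with most Cd40lg UMIs was chosen after seeing the data.

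The number of genes past 1.5 depended on the minimum by construction. With at least 200 UMIs, with 1 UMI in each library, or at a fold of 2, it was 572, 2818 and 489 in T-like cells under the STING agonist, 514, 2915 and 402 under the LTβR agonist and 471, 2916 and 380 under the combination, against 1419, 1303 and 1239. Under the combination it was 537, 3629 and 867 in B-like cells, 574, 2999 and 380 in dendritic-like cells and 842, 3372 and 622 in macrophage-like cells, against 2112, 1422 and 1757. In the same order it was 369, 2642 and 319 in dendritic-like and 458, 2739 and 457 in macrophage-like cells under the STING agonist, against 1184 and 1258. In B-like cells 200 UMIs and a fold of 2 gave 1766 and 1880 under the STING agonist against 3486, and 1693 and 1767 for the combination over the STING agonist against 3530. The B-like values of the STING agonist library rested on 15 cells.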

Other observations

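Some of the 7 genes were also measured in leukocytes outside the 4 classes, and values keep the same order of libraries. Natural killer-like cells (490, 270, 721 and 381 cells) had 107 CPM of Il21r (94.3 to 121), 60.4 CPM (48.8 to 73.9), 86.9 CPM (77.2 to 97.4) and 52.3 CPM (42.7 to 63.4). Both libraries with the STING agonist thus lay below the other 2. The class joined a cluster led by Gzma and Klra4 (56.5 CPM of Il21r over the 4 libraries) and another led by Eya1 and Itga2 (269 CPM). The latter numbered 156, 66, 117 and 35 cells, and its part in this order was not tested. Icos in natural killer-like cells was 93.8, 127, 103 and 82.0 CPM, and Bcl6 was 45.5, 49.4, 47.0 and 44.8 CPM with overlapping intervals. Neutrophil-like cells (226, 303, 379 and 68 cells) had 160 CPM of Bcl6 (131 to 194), 93.6 CPM (74.7 to 116), 107 CPM (90.3 to 127) and 138 CPM (90.4 to 203). Here each single agonist lay below untreated, while the combination interval overlapped all others. Their Cd40 was 28.8, 8.92, 30.1 and 21.3 CPM. A cluster of 558 cells led by Ace, Adgre4 and Ear2 that could not be named, with 70, 30, 226 and 232 cells, had 70.4 CPM of Cd40, 78.6 CPM of Il21r and 104 CPM of Bcl6 over the 4 libraries. Each value comes from 1 library, and no difference here was tested.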
